A study of Capra hircus with 7 samples.

Results

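The overexpression and the knockdown of cirRNA28250 were set directly against each other in goat (Capra hircus) mammary gland cells, with no control library in the contrast. The comparison rests on 4 of the 7 RNA-seq libraries of the series, chosen by their labels: cRNA28250 replicates 1 and 2, from cells given virus that carried the circular RNA, and cKDmix replicates 1 and 2, from cells in which its expression was inhibited. All libraries were made from total RNA of cells of Lanshan dairy goats kept in 3D culture, and the remaining 3 libraries (c3NC with 2 and c5NC with 1) are shown only to place the values. The labels give neither the virus, its dose, the time after transfection nor what was mixed in cKDmix. The study's design text lists 5NC beside the overexpression and 3NC beside the knockdown, and spells out neither name. Nothing in the labels ties the replicates to separate cultures or goats, and the spread on which every p-value rests may therefore be technical.

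A circular RNA is a closed loop made when a downstream splice site is joined to an upstream one, and it lacks the ends at which most RNA decay starts. Some circular RNAs bind microRNAs or proteins, and their function is commonly studied by raising and lowering their level in the same cells. The mammary gland holds milk-making luminal epithelium, contractile myoepithelium and a stroma of fibroblasts, pericytes and fat. The level of cirRNA28250 itself was not analysed here.

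The values were FPKM, fragments scaled to transcript length and to the mapped fragments of a library. In all 4 libraries stromal markers were abundant, while most luminal markers stayed under 1 FPKM. DCN, a collagen-binding proteoglycan of fibroblasts, stood at 5896 and 5251 FPKM in cKDmix, against 8015 and 8882 FPKM in cRNA28250. EPCAM, an adhesion protein of epithelium, was at or below 0.02 FPKM, and the luminal keratins KRT8 and KRT18 were at or below 0.28 FPKM. The single markers quoted here were chosen after their values were seen. Of 23 luminal markers in the table, 4 were tested and 18 stayed under 1 FPKM in all 4 libraries, and all 4 milk protein genes in the table stayed under 1 FPKM. The 4 tested luminal markers were present. ESR1 stood at 17.56 to 22.81 FPKM, CLDN4 at 5.42 to 15.84, ESRP2 at 0.86 to 2.20 and KRT7 at 0.55 to 1.74 FPKM. Summed over 18 tested and 2 untested fibroblast markers, the level ran from 14529 to 14973 FPKM with the knockdown and from 19552 to 23771 FPKM with the overexpression. Without DCN, VIM and LUM, the 3 most abundant, the sum was 4353 and 4873 FPKM in cKDmix and 9504 and 3362 FPKM in cRNA28250, so replicate 2 of cRNA28250 lay below both cKDmix libraries. Summed basal and myoepithelial markers reached 2511 and 2170.4 FPKM in cKDmix, and 1481 and 1476 FPKM in cRNA28250, with KRT5 at or below 0.34 FPKM and TP63 at or below 0.04 FPKM. Most of that sum came from TAGLN, ACTA2 and MYLK, which are in the smooth muscle list as well. In cKDmix replicate 1 they stood at 1296, 754 and 384 FPKM. In bulk RNA, fewer cells of a type and less RNA per cell cannot be told apart. Between 11479 and 11870 of 17374 genes reached 1 FPKM in these 4 libraries. The cRNA28250 replicates were farther apart than the cKDmix replicates, with log2 differences that had an SD of 0.581 in the former and 0.305 in the latter, and 1017 tested genes were 2-fold or more apart in cRNA28250 and 90 in cKDmix.

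The direct contrast asks which transcripts separate cells labelled as given the circular RNA from cells labelled as depleted of it. Among genes that passed the test, 5 of 52 respiratory chain genes were higher in cRNA28250. So were several peroxidases and 2 subunits of an ATP-sensitive potassium channel. An iron exporter, a clotting factor subunit, an inhibitor of metalloproteinases and the contractile genes MYLK and CNN1 were higher in cKDmix. So were 5 of 36 interferon-stimulated genes, while 1, LY6E, was called the other way. A gene was tested if it reached 1 FPKM in at least 2 of the 4 libraries, and differences are given on log2(FPKM + 1) as cRNA28250 minus cKDmix, a scale that understates the change of low genes. Of 12054 genes tested, 706 (5.86%) passed limma's test with Benjamini-Hochberg adjustment (adjusted p under 0.05), of which 370 (3.07%) were higher in cRNA28250 and 336 (2.79%) lower. All but 6 of them, 700, differed by at least 2-fold, and 589 carried a gene name. The median of all tested genes was −0.14, and it was −0.02 after scaling each library by its median ratio to a geometric mean library, which called 739 genes, 64.1% of them higher in place of 52.4%. Leaving out cRNA28250 replicate 1 or 2 gave 2492 and 3371 calls, and all 706 genes were among them both times. Leaving out cKDmix replicate 1 or 2 gave 102 and 72 calls, of which 100 and 72 were among the 706. With 1 library left out, the spread comes from the remaining pair alone, the closer cKDmix pair in the first 2 fits and the wider cRNA28250 pair in the others, so keeping the calls in the first 2 is no sign of stability.

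**Figure D1:**
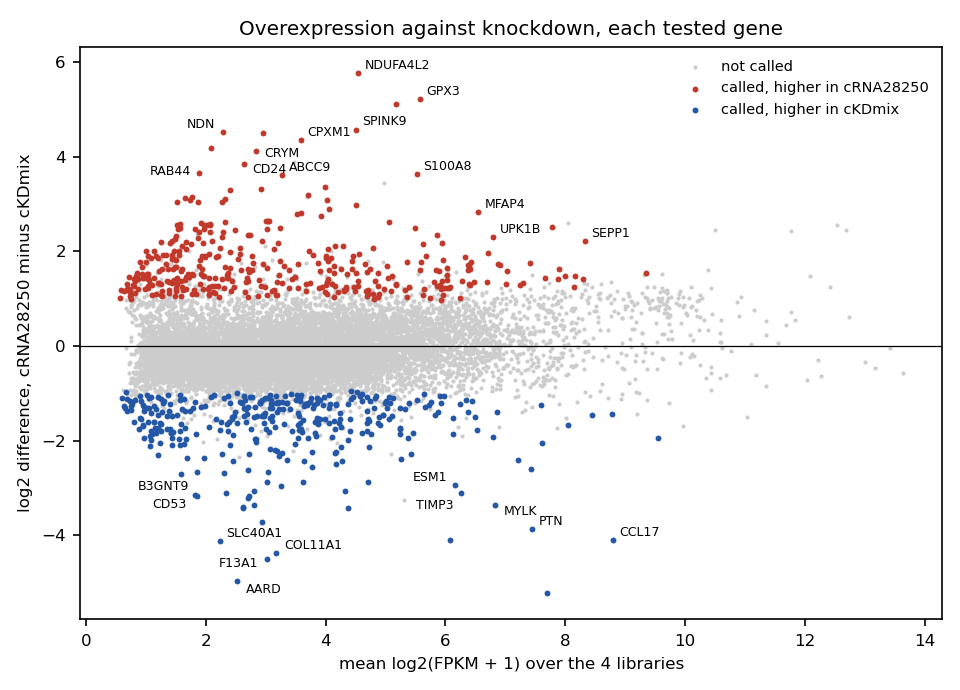
Each point is 1 of the 12054 tested genes, with its mean log2(FPKM + 1) over the 4 libraries on the horizontal axis and the log2 difference, cRNA28250 minus cKDmix, on the vertical axis; red and blue mark called genes that were higher in cRNA28250 (370) and in cKDmix (336). NDUFA4L2 at 5.77 lies highest and named genes such as AARD at −4.96 lie near the lower edge; called points with no name include loci without a gene name.

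Among the 10 named genes with the greatest differences toward cRNA28250, NDUFA4L2, GPX3, NDN, CRYM and RAB44 were below 10 FPKM in cKDmix and in every control library. NDUFA4L2, a protein of mitochondria that hypoxia induces, stood at 204 and 144 FPKM in cRNA28250 and at 2.60 and 1.79 FPKM in cKDmix, a difference of 5.77 ± 0.27 (SE; limma, Benjamini-Hochberg adjusted p = 0.000591; n = 2 libraries in each group). The control libraries, at 1.31 to 1.99 FPKM, lay with cKDmix. GPX3, a secreted glutathione peroxidase, stood at 174 and 486 FPKM in cRNA28250 and at 6.78 and 6.97 FPKM in cKDmix (5.21 ± 0.45, limma adjusted p = 0.00257). Both groups were above the controls, which reached at most 4.61 FPKM. NDN, which encodes necdin, an imprinted growth suppressor, was listed at 24.8 and 20.2 FPKM in cRNA28250 and at 0.04 and 0 FPKM in cKDmix. CRYM, a binding protein of thyroid hormone, stood at 27.95 and 29.9 FPKM against 0.83 and 0.60 FPKM, and RAB44, a Rab family GTPase, at 12.8 and 11.7 FPKM against 0.03 and 0.06 FPKM. For these 3 genes every control library was below 1 FPKM, and only the overexpression libraries were above it.

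Other genes of this set were also present in the controls. CPXM1, a member of the carboxypeptidase family, stood at 65.2 and 44.2 FPKM in cRNA28250, at 5.27 to 11.5 FPKM in the controls and at 1.83 and 1.53 FPKM in cKDmix, so the 3 sets of libraries did not overlap. ABCC9, the regulatory subunit of an ATP-sensitive potassium channel, had the same order, with 31.5 and 34.3 FPKM, 4.29 to 17.7 FPKM and 1.32 and 2.31 FPKM (3.61 ± 0.26, limma adjusted p = 0.00191). CD24, a surface glycoprotein, stood at 26.2 and 19.6 FPKM in cRNA28250 and at 0.82 and 0.50 FPKM in cKDmix, and its controls were split, with both c3NC libraries listed at 0 and c5NC at 15.5 FPKM. S100A8, a calgranulin subunit, stood at 119 and 219 FPKM against 14.5 and 10.1 FPKM, and SPINK9, an inhibitor of serine proteases, at 63.9 and 188 FPKM against 3.70 and 3.61 FPKM. In both, the controls (53.8 to 164 FPKM and 21.0 to 92.3 FPKM) lay above cKDmix.

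The abundant genes with the smallest p toward cRNA28250 were GPX3, MFAP4, UPK1B and SEPP1. MFAP4, a protein of elastic microfibrils, stood at 275 and 226 FPKM in cRNA28250 and at 37.1 and 31.2 FPKM in cKDmix (2.84 ± 0.25, limma adjusted p = 0.00262), with the controls between at 129 to 162 FPKM. UPK1B, a tetraspanin first described in the bladder lining, stood at 236 and 255 FPKM against 55.2 and 43.8 FPKM. SEPP1, a selenium carrier of plasma, stood at 606 and 789.5 FPKM against 145 and 152 FPKM (2.21 ± 0.29, limma adjusted p = 0.0105). For MFAP4, UPK1B and SEPP1, cKDmix lay below every control library.

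Toward cKDmix, the genes with the greatest differences again split into those found almost only there and those also present in the other libraries. F13A1, the catalytic part of the clotting factor that crosslinks fibrin, stood at 35.3 and 40.2 FPKM in cKDmix, against 1 and 0.46 FPKM in cRNA28250 (−4.50 ± 0.25, limma adjusted p = 0.000839). SLC40A1, the iron exporter ferroportin, stood at 19.9 and 17.4 FPKM against 0.07 and 0.18 FPKM, and AARD at 31.2 and 31.3 FPKM against 0 and 0.07 FPKM (−4.96 ± 0.22, limma adjusted p = 0.000591). CD53, a tetraspanin known from leukocytes, stood at 10.03 and 9.16 FPKM against 0.12 and 0.26 FPKM, and B3GNT9, of a glycosyltransferase family, at 10.95 and 9 FPKM against 0.17 and 0.25 FPKM. All 5 were at or below 2.56 FPKM in each control library. PTPRC, the pan-leukocyte marker, was at or below 0.02 FPKM in all 4 libraries.

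TIMP3, a matrix-bound inhibitor of metalloproteinases, stood at 223 and 227 FPKM in cKDmix, against 20.6 and 30.97 FPKM in cRNA28250 (−3.10 ± 0.27, limma adjusted p = 0.00257). Both groups were above the controls, at 7.48 to 12.9 FPKM. PTN, the heparin-binding growth factor pleiotrophin, stood at 705 and 635 FPKM in cKDmix, 114 to 545 FPKM in the controls and 30.4 and 65.9 FPKM in cRNA28250, with no overlap between these 3 sets. MYLK, the kinase that activates smooth muscle myosin, stood at 384 and 343 FPKM against 29.5 and 40.1 FPKM (−3.36 ± 0.26, limma adjusted p = 0.00216), and its controls were split between c3NC at 195 and 228 FPKM and c5NC at 15.9 FPKM. ESM1, a secreted proteoglycan called endocan and named among the abundant genes with the smallest p, stood at 219 and 178 FPKM against 21.8 and 28.4 FPKM. COL11A1, a chain of a minor fibrillar collagen, stood at 34.4 and 46.9 FPKM against 0.22 and 2.20 FPKM. CCL17, a chemokine that attracts T cells, stood at 2130.0 and 1599 FPKM in cKDmix, against 39.9 and 283 FPKM in cRNA28250 (−4.10 ± 0.81, limma adjusted p = 0.0356), the widest spread within a group among the 20 genes named for their difference.

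**Figure D2:**
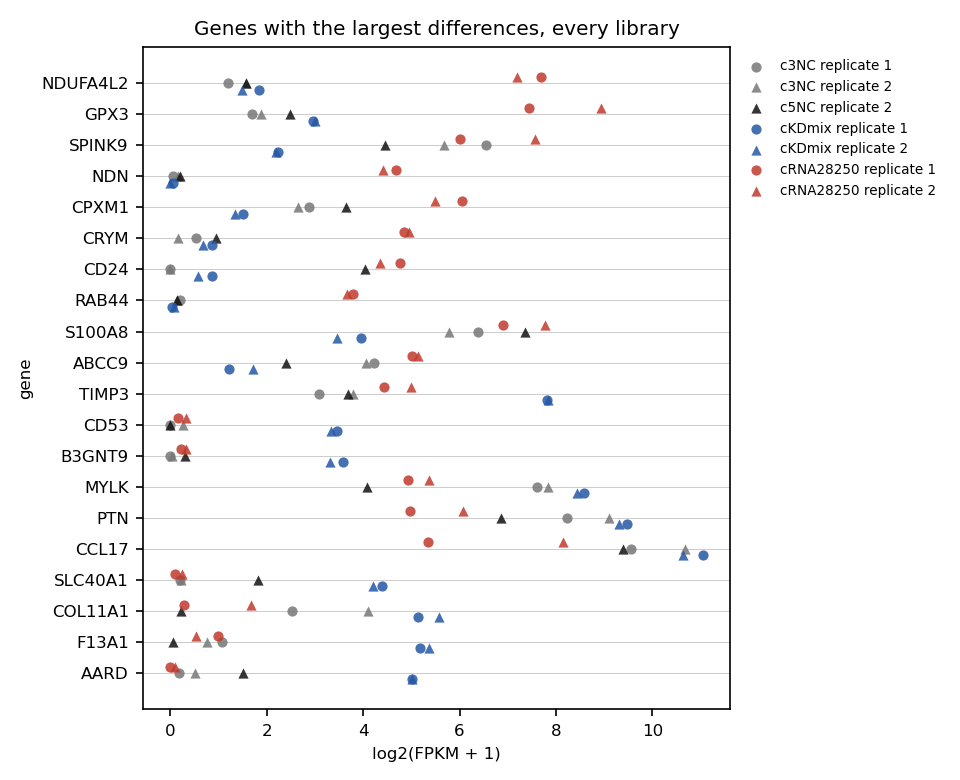
Each row is 1 of the 20 called genes with the greatest differences, 10 in each direction, and each symbol is 1 of the 7 libraries, placed by its log2(FPKM + 1); colour gives the group and shape the replicate number. NDN, CRYM and RAB44 are near 0 in all but the cRNA28250 libraries, F13A1, B3GNT9 and CD53 lie near 0 in all but the cKDmix libraries, and control libraries of PTN and ABCC9 lie between the 2 groups.

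The 3 control libraries, taken as a range from the lowest to the highest, place each called gene. A group was counted as apart when both of its libraries lay outside that range on the same side. Of the 706 called genes, 325 had only cKDmix apart, 120 only cRNA28250, 111 both groups on opposite sides and 92 both groups on the same side, while 58 had neither group apart. Over all 12054 tested genes these shares were 36.7%, 8.11%, 2.53%, 23.7% and 29%. Called genes had to differ between the groups, so part of these shares follows from the call. Genes with the groups on opposite sides include CPXM1, ABCC9, MFAP4, PTN and, by small steps near 0, RAB44 (at most 0.06 FPKM in cKDmix) and AARD (at most 0.07 FPKM in cRNA28250). Genes with both groups on the same side, such as GPX3 and TIMP3, differed between the groups in how far they lay from the controls. The direct contrast and any contrast with the controls use the same cRNA28250 and cKDmix libraries.

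**Figure D3:**
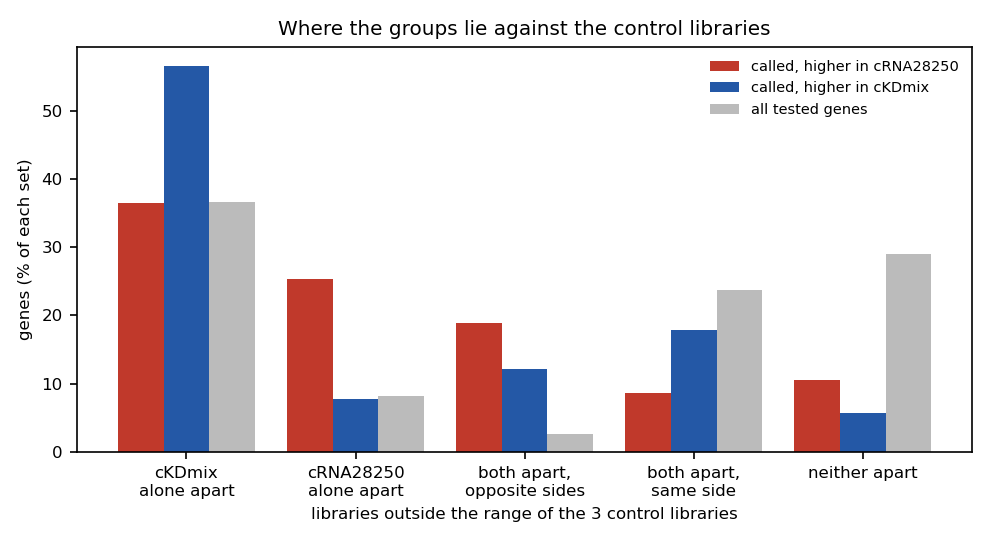
Bars give the percentage of genes in each position against the range of the 3 control libraries, for genes called higher in cRNA28250 (red, 370), called higher in cKDmix (blue, 336) and all tested genes (grey, 12054). Genes with cKDmix alone apart make up 36.5% of the first set and 56.5% of the second, and genes with cRNA28250 alone apart 25.4% and 7.74%.

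Gene lists of known pathways and cell types are described by how many members were called, by how many had libraries that did not overlap between the groups, and by the list median minus the median of all genes. Over all tested genes, 22.4% had both cRNA28250 libraries above both cKDmix libraries and 37.4% had both below. Limma called 3.07% of them higher and 2.79% lower. Several lists with 1 or 2 calls lie near these shares, so such counts are no result about the list. Cytosolic ribosomal proteins, the protein part of the ribosome, had both cRNA28250 libraries above in 65 of 75 tested members and below in 0. Their relative median was 1.08, and 0.55 after quantile normalization. Summed over the list, the level was 45557 and 34859 FPKM in cKDmix and 56085 and 101475 FPKM in cRNA28250, so the groups did not overlap but the cRNA28250 replicates lay far apart. The control sums were 83826 and 83674 FPKM in c3NC and 90891 FPKM in c5NC. They lay above cKDmix and cRNA28250 replicate 1, and below cRNA28250 replicate 2. Limma called 0 of the 75 at an adjusted p under 0.05 (36 at an unadjusted p under 0.05), and 60 and 2 without cRNA28250 replicate 1 and 2. RPLP2, of the ribosomal stalk, stood at 422 and 544 FPKM against 254 and 178 FPKM (limma adjusted p = 0.0821), and RPS2, of the small subunit, at 277 and 429 FPKM against 182 and 130 FPKM (0.0915). For RPLP2 the controls, at 630 to 773 FPKM, lay above both groups. Ribosomal protein genes share sequence with pseudogenes, which makes single values uncertain.

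Nuclear genes of the respiratory chain, which moves electrons to oxygen and drives ATP synthesis, had both cRNA28250 libraries above in 45 of 52 tested members and below in 0, with a relative median of 0.87. Summed, they stood at 5150 and 6506 FPKM in cRNA28250 and at 3741 and 2858 FPKM in cKDmix. The control sums, 4900 to 5190 FPKM, lay above cKDmix. Replicate 1 of cRNA28250 lay within the control sums and replicate 2 above them. The 52 are genes of NADH dehydrogenase, succinate dehydrogenase and ATP synthase, with NDUFA4; the 20 listed symbols of cytochrome c and of the UQCR and COX families were not matched and are not analysed here. Of the 52, 5 were called higher and 0 lower. The complex I subunits NDUFA6 (83.2 and 144 FPKM against 41.4 and 34.7 FPKM; 1.51 ± 0.31, limma adjusted p = 0.0394), NDUFA11, NDUFB4 and NDUFA3 (110 and 103 FPKM against 54.8 and 49.6 FPKM) were among them. These subunits all lost their calls without a filter. NDUFA11, NDUFB4 and NDUFA3 also lost theirs with a pseudocount of 0.1. So did NDUFA11 without the variance trend, and NDUFA3 with the filter on the mean and with a replicate block. For NDUFA6, NDUFB4 and NDUFA3 only cKDmix lay apart from the controls, and for NDUFA11 both groups did, on opposite sides. In both lists genes are abundant, and the difference moved with abundance over the whole table: its median was −0.22 for genes under 10 FPKM, −0.06 for 10 to 100 FPKM and 0.28 for at least 100 FPKM. The part of abundance in the list medians was not tested.

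**Figure D4:**
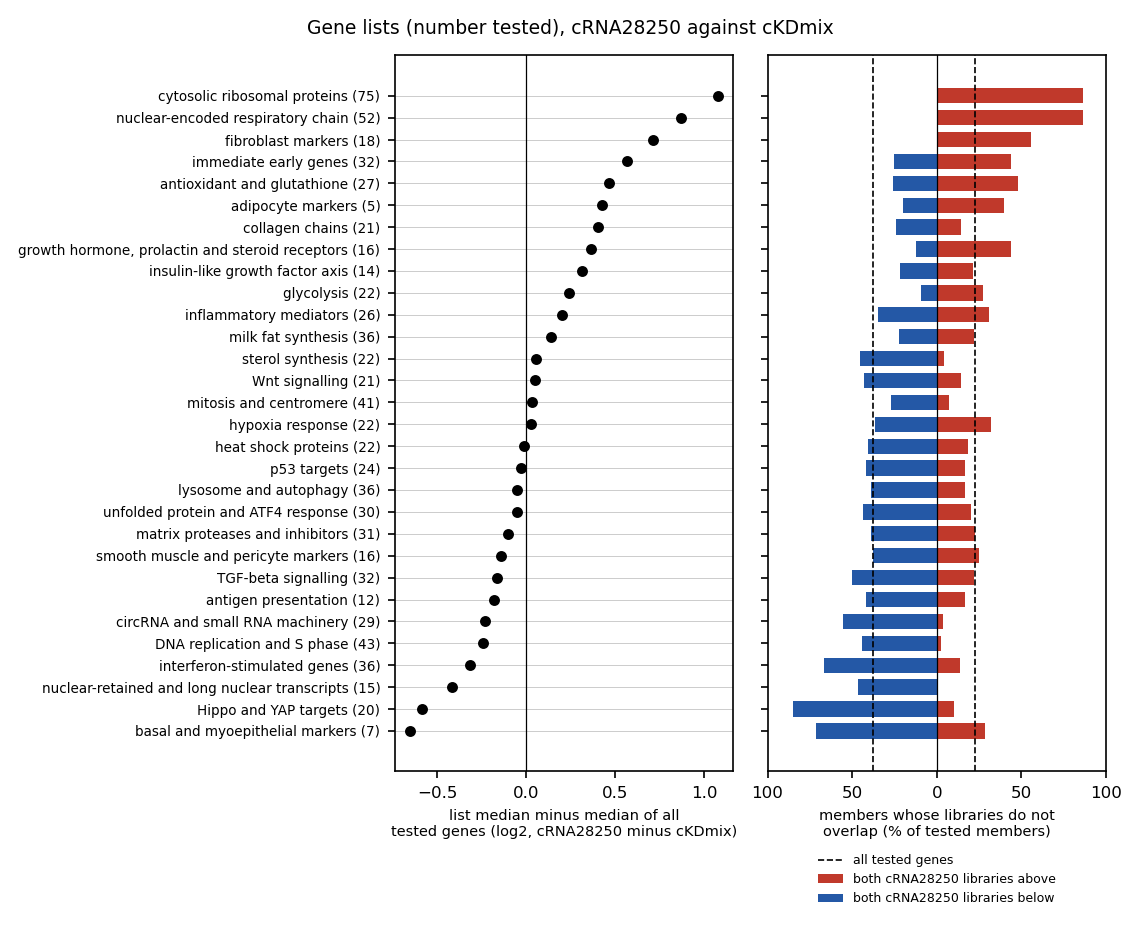
The left panel gives, for 30 lists with at least 5 tested genes (number tested in brackets), the list median minus the median of all tested genes, on the log2 scale as cRNA28250 minus cKDmix; the right panel gives the percentage of members with both cRNA28250 libraries above (red) or below (blue) both cKDmix libraries, and dashed lines mark 22.4% and 37.4% for all genes. Ribosomal and respiratory chain genes lie at one end and Hippo and myoepithelial genes at the other; the medians of glycolysis, hypoxia and Wnt genes fall below 0 with quantile normalization.

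The shares called over all tested genes were 3.07% higher and 2.79% lower. Of 27 antioxidant genes tested, 6 were higher in cRNA28250 and 1 lower (relative median 0.47). Besides GPX3, they included GPX7, a peroxidase of the endoplasmic reticulum, at 20.5 and 16.9 FPKM against 3.50 and 3.21 FPKM (2.17 ± 0.23, limma adjusted p = 0.00572), and PRDX2, a cytosolic peroxiredoxin, at 204 and 200.04 FPKM against 89.9 and 72.6 FPKM. The lower gene was GCLM, a subunit of the enzyme that starts glutathione synthesis, at 13.5 and 29.7 FPKM against 77.1 and 82.9 FPKM. In glycolysis, 4 of 22 were called higher and 0 lower, while the relative median of 0.24 turned to −0.16 with quantile normalization and to −0.01 without cRNA28250 replicate 1. PFKFB3, which makes an activator of glycolytic flux, stood at 40.3 and 46.9 FPKM against 13.5 and 14.7 FPKM (1.56 ± 0.22, limma adjusted p = 0.0121), LDHB, a lactate dehydrogenase subunit, at 357 and 480.4 FPKM against 147 and 123 FPKM, and ENO2, an enolase, at 28.9 and 24.6 FPKM against 11.03 and 9.87 FPKM. ALDOC, an aldolase, was low at 1.15 and 1.05 FPKM against 0.04 in both cKDmix libraries. In the hypoxia list, 1 of 22 was higher (NDUFA4L2) and 1 lower: CA12, a carbonic anhydrase of the cell surface, at 120 and 130.0 FPKM against 277 and 320.3 FPKM. That list had a relative median of 0.03, which was −0.05 with quantile normalization.

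Contractile and pericyte genes moved in both directions. Of 16 smooth muscle and pericyte genes tested, 2 were higher and 2 lower in cRNA28250, and of 7 basal and myoepithelial genes 1 was higher and 3 lower. For all tested genes the called shares were 3.07% higher and 2.79% lower. The lists share ACTA2, TAGLN, MYLK, CNN1 and MYH11, and the lower calls MYLK and CNN1 count in both. KCNJ8, the pore subunit that pairs with ABCC9 in a potassium channel of pericytes, stood at 13.5 and 26.7 FPKM in cRNA28250 and at 2.65 and 1.84 FPKM in cKDmix (2.64 ± 0.34, limma adjusted p = 0.0100). Both groups had values below or within those of the controls, 15.2 to 81.2 FPKM. CNN1, the contractile protein calponin, stood at 8.08 and 13.7 FPKM against 29.99 and 29.65 FPKM, and ITGA6, an integrin of basal epithelium, at 7.85 and 6.59 FPKM against 34.3 and 42.4 FPKM (−2.25 ± 0.23, limma adjusted p = 0.00482). The controls of CNN1, at 0.10 to 1.99 FPKM, lay below both groups. Those of ITGA6 were split, with c3NC at 1.33 and 3.21 FPKM and c5NC at 84.5 FPKM. OXTR, the oxytocin receptor, was low, at 1.20 and 1.60 FPKM against 0.17 and 0.14 FPKM, and like ALDOC it lost its call with the filter on the mean. ACTA2, smooth muscle actin, chosen after its values were seen, stood at 432 and 384 FPKM against 754 and 659 FPKM and was not called (limma adjusted p = 0.169), but was called lower with quantile normalization (0.0408). Of the 16 smooth muscle and pericyte genes, 4 lay above cKDmix without overlap and 6 below. These counts lie near the shares over all tested genes, 22.4% above and 37.4% below, and are no result about the list. MYH11 (15.37 and 15.13 FPKM against 9.13 and 10.41) and SMTN (27.14 and 22.20 FPKM against 12.39 and 15.05) lay above and were not called.

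Targets and parts of the Hippo pathway, through which cell shape and contact set the activity of YAP1, had both cRNA28250 libraries below in 17 of 20 tested members, with a relative median of −0.59. Limma called 2 of the 20 lower and 0 higher. For all tested genes the shares were 37.4% with both below, 2.79% called lower and 3.07% called higher. ANKRD1, a YAP1 target, stood at 0.03 and 1.87 FPKM in cRNA28250 and at 8.22 and 7.59 FPKM in cKDmix, and AJUBA, a LIM domain protein that binds the Hippo kinases, at 8.87 and 18.6 FPKM against 49.6 and 45.3 FPKM (−1.80 ± 0.34, limma adjusted p = 0.0314). ANKRD1 lost its call with a pseudocount of 0.1. Of 32 TGF-beta signalling genes, 2 were higher and 3 lower. BAMBI, a decoy receptor, stood at 11.4 and 5.90 FPKM against 1.04 and 0.93 FPKM, and ID1, a target of BMP signals, at 224 and 202 FPKM against 76.5 and 52.7 FPKM. TGFBR3, a co-receptor, stood at 15.4 and 13.3 FPKM against 38.2 and 50.04 FPKM, and INHBA, a subunit of activin, at 1.34 and 4.44 FPKM against 15.4 and 10.97 FPKM. INHBA lost its call with a pseudocount of 0.1; the relative median was −0.16.

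In the matrix, fibroblast markers had 2 of 18 called higher and 0 lower (relative median 0.71). For all tested genes the called shares were 3.07% and 2.79%. Of the 18, 7 were at least 2-fold lower in cRNA28250 replicate 2 than in replicate 1. CXCL12, a chemokine of stroma, stood at 23.9 and 16.8 FPKM against 5.29 and 5.49 FPKM (1.72 ± 0.25, limma adjusted p = 0.0139), and DPT, a matrix protein called dermatopontin, at 84.9 and 116 FPKM against 34.9 and 29.4 FPKM. Of 21 collagen chains, 0 were higher and 3 lower: COL11A1, COL8A1, a short-chain collagen, at 36.7 and 129 FPKM against 406 and 442 FPKM, and COL4A5, a basement membrane chain, at 1.28 and 3.39 FPKM against 7.96 and 8.57 FPKM. Of 31 matrix proteases and inhibitors, 2 were higher (MMP15 and ADAMTS4) and TIMP3 was lower, with a relative median of −0.10 that was 0.22 without cRNA28250 replicate 2. MMP15, a membrane-bound metalloproteinase, stood at 5.65 and 4.51 FPKM against 1.72 and 1.99 FPKM. ADAMTS4, an aggrecan-cleaving protease, stood at 3.30 and 2.05 FPKM against 0.67 and 0.58 FPKM and lost its call with a pseudocount of 0.1, with both other filters and without the variance trend. COL4A5 and MMP15 lost theirs with a pseudocount of 0.1.

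Interferon-stimulated genes, which defend cells against viruses, had both cRNA28250 libraries below in 24 of 36 tested members and above in 5, with a relative median of −0.32. Of the 36, 5 were called lower and 1 higher. For all tested genes the shares were 37.4% below and 22.4% above, with 2.79% called lower and 3.07% called higher. MX2, an antiviral GTPase, stood at 0.19 and 0.42 FPKM in cRNA28250 and at 2.21 and 2.80 FPKM in cKDmix, and RSAD2, the antiviral enzyme viperin, at 0.40 and 0.44 FPKM against 2.23 and 2.96 FPKM. SAMD9, an antiviral factor, stood at 2.32 and 2.18 FPKM against 7.18 and 11.3 FPKM (−1.63 ± 0.27, limma adjusted p = 0.0215). MX1, an antiviral GTPase, and DDX58, a sensor of viral RNA, were named because they complete the list's calls; they stood at 47.5 and 26.1 FPKM against 91.8 and 97.6 FPKM and at 5.72 and 4.17 FPKM against 12.1 and 15.95 FPKM. In both, and in RSAD2 and SAMD9, cRNA28250 also lay above all 3 controls. For MX2 it did not, as a c3NC library stood at 0.30 FPKM. DDX58 lost its call with quantile normalization (limma adjusted p = 0.0519) and MX1 with median ratio scaling (0.0734), a pseudocount of 0.1, the filter over 7 libraries and no variance trend. LY6E, a surface protein that blocks virus entry, went the other way, at 89.0 and 190 FPKM against 30.6 and 26.1 FPKM (2.17 ± 0.36, limma adjusted p = 0.0220). No member of the antigen presentation list was called, 0 of 12 (3 at an unadjusted p under 0.05), with a relative median of −0.18 that was 0.03 without cRNA28250 replicate 2. PSMB10, an immunoproteasome subunit, had the smallest p of that list (limma adjusted p = 0.114), and TAP2, a peptide transporter, stood at 6.89 and 3.23 FPKM against 11.02 and 9.62 FPKM (0.129).

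Of 26 inflammatory mediators, 4 were called higher and 4 lower (relative median 0.20, and −0.08 without cRNA28250 replicate 1). The called shares of all tested genes were 3.07% and 2.79%. Higher in cRNA28250 were S100A8, its partner S100A9 at 52.98 and 46.8 FPKM against 4.59 and 3.40 FPKM (3.36 ± 0.23, limma adjusted p = 0.00191), ICAM1, a leukocyte adhesion receptor, at 35.1 and 28.1 FPKM against 8.05 and 7.88 FPKM, and SOD2, a mitochondrial superoxide dismutase. Lower were IL6, a cytokine of the acute phase response, at 6.08 and 4 FPKM against 23.6 and 20.3 FPKM (−1.94 ± 0.26, limma adjusted p = 0.0107), and IL33, IL1A and TLR4. IL33, an alarm cytokine, stood at 2.88 and 7.28 FPKM against 32.1 and 32.5 FPKM; SOD2, IL33, IL1A and TLR4 were named because they complete the list's calls. TLR4 lost its call with quantile normalization (limma adjusted p = 0.0758) and median ratio scaling (0.0664), and both TLR4 and IL1A lost theirs with a pseudocount of 0.1 and without the variance trend. Of the macrophage list, 3 of 11 members were tested, and 6 stayed under 1 FPKM in all 4 libraries. FCER1G was tested and not called, at 0.49 and 1.14 FPKM against 0.99 and 1.02 FPKM. Of the untested, ITGAM reached 2.12 FPKM in cRNA28250 replicate 2 and LAPTM5 1.07 FPKM in cKDmix replicate 1. CD14, a co-receptor for bacterial lipid, was called higher at 195 and 115 FPKM against 45.7 and 44.03 FPKM, while PTPRC, CSF1R and AIF1 stayed at or below 0.21 FPKM. CD68, a lysosomal protein of macrophages, lay the other way without overlap, at 6.11 and 10.67 FPKM against 19.36 and 19.32 FPKM. It was not called (limma adjusted p = 0.0623), and was called lower with all 7 libraries in the fit (0.0373). The endothelial list had 3 of 9 tested, with the transcription factor ERG called lower at 5.22 and 6.22 FPKM against 24.1 and 25.4 FPKM and PECAM1 and VWF at or below 0.42 FPKM. EGFL7, a secreted endothelial protein, lay the other way without overlap, at 18.74 and 18 FPKM against 11.69 and 7.81 FPKM. It was not called (limma adjusted p = 0.0941), and was called higher with all 7 libraries in the fit (0.0424). FLT1, the remaining tested gene, was not called, at 4.25 and 1.82 FPKM against 3.76 and 4.37 FPKM. The lymphocyte list had 2 tested and 0 called by limma (1 at an unadjusted p under 0.05). These lists had fewer than 5 tested genes, and their genes were named after their values were seen.

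IGFBP3, a carrier of insulin-like growth factors, stood at 1.44 and 1.73 FPKM in cRNA28250 and at 8.85 and 11.3 FPKM in cKDmix (−2.09 ± 0.24, limma adjusted p = 0.00674), the 1 call among 14 genes of that axis. VDR, the vitamin D receptor, stood at 35.3 and 26.5 FPKM against 8.40 and 9.35 FPKM (1.68 ± 0.24, limma adjusted p = 0.0131), the 1 call among 16 hormone receptor and STAT5 genes. Of 36 milk fat synthesis genes 2 were higher and 0 lower: FABP5, a fatty acid binding protein, at 36.6 and 28.7 FPKM against 10.6 and 9.25 FPKM, and CD36, a fatty acid transporter, at 66.2 and 85.7 FPKM against 33.2 and 30.9 FPKM. Over all tested genes, 3.07% were called higher and 2.79% lower. Of 22 sterol synthesis genes 0 were called and 3 had an unadjusted p under 0.05 (DHCR7, of the last step of cholesterol synthesis, 4.91 and 2.36 FPKM against 8 and 8.03 FPKM, limma adjusted p = 0.104; MVK, mevalonate kinase, 0.153). Of 21 Wnt genes 0 were called and 5 had an unadjusted p under 0.05 (FZD6, a receptor, 6.39 and 8.70 FPKM against 15.8 and 16.2 FPKM, limma adjusted p = 0.0569; WIF1, a secreted antagonist, 0.0627). Of 5 adipocyte markers 0 were called and 2 had an unadjusted p under 0.05 (CIDEA, a lipid droplet protein, limma adjusted p = 0.136; LEP, leptin, 0.160).

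In the stress lists, 2 of 30 genes of the unfolded protein and ATF4 response were lower in cRNA28250 and 0 higher. The shares over all tested genes were 2.79% lower and 3.07% higher. CHAC1, which degrades glutathione, stood at 0.61 and 0.85 FPKM against 3.79 and 3.65 FPKM, and PSAT1, of serine synthesis, at 17.8 and 15.9 FPKM against 39.3 and 34.3 FPKM; both lost their calls when all 7 libraries entered the fit. Of 24 p53 targets 1 was lower, PHLDA3, an inhibitor of AKT, at 57.1 and 40.96 FPKM against 110 and 119 FPKM. Of 22 heat shock genes 1 was higher, the small chaperone CRYAB, at 195 and 259 FPKM against 80.6 and 68.5 FPKM. Of 36 lysosome and autophagy genes 1 was higher and 1 lower. CTSL, a lysosomal protease, stood at 85.9 and 91.8 FPKM against 44.2 and 29.98 FPKM, and CTSK, a collagen-degrading protease, at 124 and 175 FPKM against 495 and 449 FPKM (−1.67 ± 0.30, limma adjusted p = 0.0264). Among 29 genes of circular and small RNA handling, MBNL2, a splicing factor of the muscleblind family, was the 1 call, at 16.9 and 18.4 FPKM against 46.8 and 54.4 FPKM (−1.47 ± 0.22, limma adjusted p = 0.0150). The relative median of that list was −0.23; those of the stress, p53, heat shock and lysosome lists lay between −0.05 and −0.01 and turned sign in some fits without 1 library. PHLDA3 and PSAT1, as well as CA12 above, lost their calls with median ratio scaling.

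The replicates of cRNA28250 differed by program. Mitosis genes were at least 2-fold lower in replicate 2 than in replicate 1 in 25 of 41 tested, with a list median of −1.08, and collagen chains in 14 of 21 (−1.15). Immediate early genes, which respond to stimuli before new protein is made, were so in 12 of 32 (−0.74). Nuclear-retained transcripts were at least 2-fold apart in 10 of 15, all higher in replicate 2 (1.42), and ribosomal protein genes in 25 of 75, all higher in replicate 2 (0.86). The median of all tested genes was 0.12 between these replicates. In cKDmix, 0 members of these 5 lists were 2-fold apart.

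**Figure D5:**
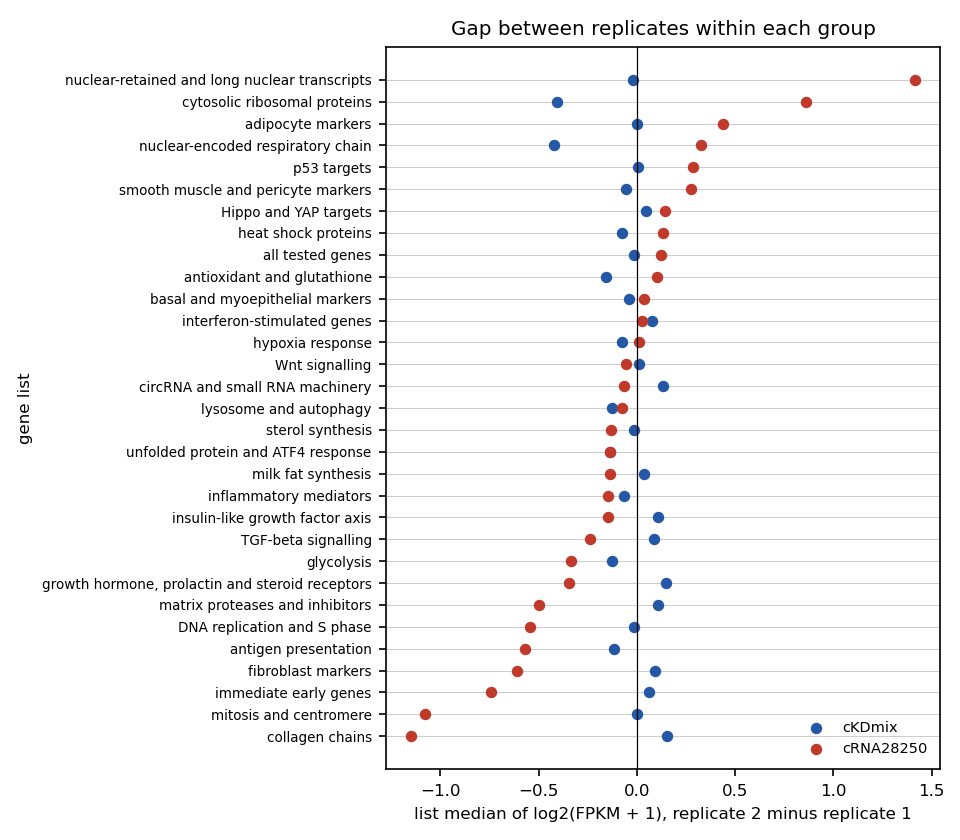
For each list with at least 5 tested genes and for all tested genes, points give the list median of log2(FPKM + 1) in replicate 2 minus replicate 1, in red for cRNA28250 and in blue for cKDmix. In cRNA28250 the medians run from −1.15 (collagen chains) to 1.42 (nuclear-retained transcripts), and in cKDmix from −0.42 (respiratory chain) to 0.15 (collagen chains).

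For 4 lists with gaps between the cRNA28250 replicates, among others, the sign of the relative median depended on which replicate was kept. That sign is against the median of all tested genes, not against cKDmix. With all 4 libraries, 0 of 15 nuclear-retained transcripts and 7 of 43 DNA replication genes had a difference above 0. The relative median of mitosis genes was −0.53 without cRNA28250 replicate 1 and 0.72 without replicate 2, and that of collagen chains −0.40 and 1.06. DNA replication genes gave −0.54 and 0.12, and nuclear-retained transcripts 0.03 and −1.22. Of 41 mitosis genes, 1 was called higher and 2 lower, against 3.07% and 2.79% of all tested genes. PTTG1, the securin that holds back chromatid separation, stood at 47.8 and 42.7 FPKM against 14.9 and 11.2 FPKM (1.73 ± 0.23, limma adjusted p = 0.0109). ANLN, a scaffold of the cleavage furrow, stood at 25.5 and 13.3 FPKM against 51.9 and 60.5 FPKM, and CENPE, a kinetochore motor, at 0.50 and 0.14 FPKM against 1.63 and 3.06 FPKM. ANLN lost its call with median ratio scaling, and CENPE with quantile normalization and median ratio scaling among others (limma, highest adjusted p over all alternatives 0.437). Of 43 DNA replication genes 0 were called (14 at an unadjusted p under 0.05). MCM3, a helicase subunit, stood at 7.96 and 2.67 FPKM against 18.7 and 16.4 FPKM (limma adjusted p = 0.0594), and POLA1, a DNA polymerase subunit, had an adjusted p of 0.0716. Of 15 nuclear-retained transcripts 0 were called (3 at an unadjusted p under 0.05). RBM25, a splicing factor, stood at 7.79 and 10.4 FPKM against 20.5 and 18.5 FPKM (limma adjusted p = 0.0524), and CLK1, a kinase of splicing factors, at 20.6 and 51.3 FPKM against 86.3 and 80.8 FPKM (0.101).

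Of 32 immediate early genes, 1 was called higher and 0 lower: EGR3, a zinc finger factor, at 6.69 and 3.30 FPKM against 0.37 and 0.67 FPKM (1.93 ± 0.32, limma adjusted p = 0.0215). The list's relative median of 0.57 fell to 0.06 without cRNA28250 replicate 1. FOS, a part of the AP-1 factor, stood at 300.2 and 5.15 FPKM in cRNA28250 and at 1.81 and 1.97 FPKM in cKDmix, and EGR1 at 155 and 8.59 FPKM against 2.91 and 3.83 FPKM. Neither was called (limma adjusted p = 0.163 and 0.135) except with a replicate block or without a cRNA28250 library, although their libraries did not overlap between the groups; both were chosen after their values were seen. Replicate 2 of cRNA28250 lay above both cKDmix libraries but far below replicate 1 in these genes. Replicate 1 lay below the controls for FOS (367 to 587 FPKM) and within them for EGR1 (105 to 308 FPKM). Of the 74 called genes named by rule, 22 were called in every fit that left out 1 library, 19 of them among the 20 with the greatest differences, all but CCL17.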

How the data were processed

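RNA-seq of total RNA was given as 1 table of FPKM (fragments scaled to transcript length and to all mapped fragments of a library) for 17374 genes in 7 libraries, made by the authors and labelled so in the file's column names. For the aligner, the genome build and the counting step, nothing is stated by the labels or the file header. The deposited FPKM values carry no read counts and their decimals are too coarse to recover them, so the depth is unknown and no counting intervals are given. Of the gene identifiers, 17007 have a RefSeq symbol in the table (2303 of these are locus numbers) and 367 are unnamed.

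From these values, log2(FPKM + 1) was fitted with limma 3.58.1 in R 4.3.3 with a variance trend, on the 4 cRNA28250 and cKDmix libraries alone. Genes were kept if 2 or more of them reached 1 FPKM, and p-values were adjusted by Benjamini-Hochberg over all 12054. The fit had 2 residual degrees of freedom, moderated by 5.07 prior ones. On simulated data for this comparison with 12054 genes, 81% of 100 genes changed by 1 on the log2 scale and 100% of 100 changed by 2 were recovered, with 8 false calls. The simulated noise was independent between genes and had the same spread in both groups at a given mean level. Changed genes were drawn from those averaging above 2 on the log2 scale. The wider gap between the cRNA28250 replicates was not simulated, so these rates need not hold for the real libraries.

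Genes were named by rule: in each direction the 10 called genes with the greatest difference whose groups do not overlap and whose higher group averages at least 2 FPKM, and the 4 with the smallest p among those averaging at least 100 FPKM. In each list with at least 5 tested genes, up to 4 called members were named, or 2 where 0 were called. The comparison and its 37 gene lists were chosen with earlier results of these data known. Of 1060 listed symbols, 943 are in the table. Alternatives changed the pseudocount, the filter, the scaling, the variance trend, the libraries in the fit and a replicate block, and left out each library in turn.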

Additional observations from a re-analysis of the deposited data

How the results depend on the processing

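The 706 calls (370 higher, 336 lower, 700 at 2-fold) stayed within 1.5 times with a pseudocount of 0.1, the other filters, both scalings and no variance trend. Without a filter they were 133 (66 higher, 67 lower, 117 at 2-fold), and with all 7 libraries in the fit 1460 (686 higher, 774 lower). The replicate numbers do not pair the libraries by their labels, and the deviations of same-numbered libraries correlated at −0.152. A replicate block gave 1242 calls (597 higher, 645 lower, 1099 at 2-fold), and pairing the cKDmix numbers the other way, an alternative chosen after seeing the data, gave 2089 (1018 higher, 1071 lower, 1195 at 2-fold). Leaving out 1 library gave 72 to 3371 calls (38 to 1289 higher, 34 to 2301 lower, 72 to 1707 at 2-fold). Of the 706, 65 were called in every fit without 1 library and 50 under all alternatives, and no call turned direction. The cause of these shifts was not tested, except that more genes were tested without a filter and that a fit without 1 library takes its spread from the remaining pair.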
